A study of Mus musculus with 2 samples.

Results

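Annotated transcripts made of a single exon were examined in long-read RNA sequencing of mouse gastrocnemius, the large calf muscle. Members were the annotated single-exon transcripts, without spike-ins and without mitochondrially encoded (mt-) genes, whose reads in the 2 libraries summed to 5 or more. They were thus selected on their read counts, and these counts are given as a description. There were 531 of them, from 526 genes, among 18650 annotated transcripts with at least 1 read. The annotation holds 26771 single-exon transcripts outside the mt- genes, of which 1413 had a read. At the threshold, 51 members had exactly 5 summed reads and 59 transcripts just outside had 4. Both libraries came from males of B6CASTF1/J, a first-generation hybrid of C57BL/6J and CAST/EiJ, at the age of 2 months, with 2 µg of total RNA as input. There was 1 group and no treatment, so no test between conditions was possible, and every comparison between libraries is a description. The labels number the libraries as biological replicates 1 and 2 of different males but give both the same donor identifier, so the spread between them may be partly technical. The files hold whole-number read counts, with 1104085 reads on annotated non-mt genes in replicate 1 and 1399115 in replicate 2, and levels are given as counts scaled to 1000000 of these reads (CPM). All 8 muscle fibre markers were read, summing to 319310 CPM in replicate 1 and 296139 CPM in replicate 2. Markers of other cell types were also present: all 4 fibroblast markers summed to 569 and 635 CPM, all 5 erythroid markers to 171 and 110 CPM, and all 4 endothelial markers to 23.5 and 41.5 CPM. Only 1 of 3 adipocyte markers was read, at 11.8 and 2.86 CPM, and 1 of 4 macrophage markers in replicate 1 and 2 of 4 in replicate 2, summing to 0.906 and 2.14 CPM.

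Most mammalian genes are interrupted by introns, and a transcript without any comes from a few known sources. Some genes are intronless by origin, among them many immediate early transcription factors, receptors and the replication-dependent histones. Others are retrocopies, made when a spliced mRNA was reverse-transcribed and inserted elsewhere in the genome, so that the copy carries the joined exons of its source in an unbroken stretch. Retrocopies are most numerous for short, highly expressed genes such as those of ribosomal proteins and Gapdh, the glycolytic enzyme glyceraldehyde-3-phosphate dehydrogenase, which is abundant in fast muscle. Finally, a multi-exon gene can carry an annotated single-exon transcript, often a retained intron. Because a long read of a spliced mRNA and of a near-identical retrocopy have the same bases, the counts of such pairs depend on where the aligner placed each read and are uncertain.

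The sequences that show this overlap come first, from the GENCODE M21 transcript sequences on mm10, written 5′ to 3′ on the transcript's strand. The stretch below covers the junction after the fifth exon of the spliced transcript Gapdh-203, with the exon after the junction in capitals. In Gapdh it is split between chr6:125162478-125162507 and chr6:125162364-125162393 on the minus strand. The 5 most read Gapdh copies among the members hold the same 60 bases without a break, for example Gm12671 at chr4:91851890-91851949 (minus strand) and Gm5559 at chr5:95862434-95862493 (plus strand).
Gapdh-203 and 5 copies: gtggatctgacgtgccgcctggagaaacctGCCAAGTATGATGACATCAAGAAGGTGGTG

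Over its 1002 bases Gm12671 (chr4:91851668-91852669, minus strand) had no difference from the coding sequence of Gapdh-203. Gm5559 (chr5:95861714-95862715, plus strand) and Gm12033 (chr11:20335012-20336013, minus strand) had 1 difference each. These were T385A in Gm5559 and T504C in Gm12033, with the base of Gapdh first and positions counted from 1 at the first base of the copy, which is also the first base of the Gapdh coding sequence. The single base that separates each copy from the gene is in capitals below, within windows at chr5:95862078-95862118 for Gm5559 and chr11:20335490-20335530 for Gm12033.
Gm5559-201: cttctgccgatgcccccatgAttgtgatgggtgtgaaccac
Gapdh-203 at the same place: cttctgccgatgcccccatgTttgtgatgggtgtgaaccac
Gm12033-201: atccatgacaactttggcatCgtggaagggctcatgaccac
Gapdh-203 at the same place: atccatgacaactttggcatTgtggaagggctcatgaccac

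The most read copy of a respiratory chain gene is short enough to be shown whole. Gm12338 (chr11:75599763-75599954, minus strand, 192 bases) was identical to a stretch of Cox7c, which encodes a small subunit of cytochrome c oxidase on chromosome 13, and the Cox7c exon after the junction it spans is in capitals.
Gm12338-201: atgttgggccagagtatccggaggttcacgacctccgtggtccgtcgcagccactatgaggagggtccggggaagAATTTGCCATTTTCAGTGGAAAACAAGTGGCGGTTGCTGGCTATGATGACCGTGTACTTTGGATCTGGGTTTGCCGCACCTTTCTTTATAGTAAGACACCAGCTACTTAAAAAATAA

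The members held 18363 reads in replicate 1, which is 1.66% of reads on annotated non-mt genes (95% Wilson interval 1.64 to 1.69), and 22416 reads in replicate 2, which is 1.60% (1.58 to 1.62). The mean share was 1.63% ± 0.0432 (SD, n = 2). These intervals cover counting error only. Annotated multi-exon transcripts with 5 or more reads, 9632 in number, held 63.8% of reads in replicate 1 and 63.1% in replicate 2. Reads were concentrated on few members: the 10 most read members held 34.7% of member reads in replicate 1 and 30.8% in replicate 2, whereas 164 members had 5 to 9 summed reads.

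The members fell into 3 classes by the annotation of their genes. Intronless genes with other names than Gm and a number gave 256 members, with 7152 reads in replicate 1 and 9292 in replicate 2. Intronless genes named Gm and a number, a name for gene models predicted in the mouse genome, gave 171 members with 9347 and 10627 reads. Single-exon transcripts of genes that also have multi-exon transcripts gave 104 members with 1864 and 2497 reads. Thus 32.2% of members, the Gm-named ones, held 50.9% of member reads in replicate 1 and 47.4% in replicate 2. In the annotation the Gm-named class is by far the most numerous, at 17066 single-exon transcripts, of which 1.00% were members, against 4.86% of 5266 in the intronless class and 2.34% of 4439 in the multi-exon class.

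The classes differed in length and in their annotated ends, which the selection did not use. The median length was 1560 nt for intronless genes, 531 nt for Gm-named genes and 2477 nt for single-exon transcripts of multi-exon genes. For multi-exon annotated transcripts with 5 or more reads it was 2475.5 nt. The polyadenylation signal AATAAA, searched on the transcript's strand in the last 50 bases of each annotated transcript, was found in 188 of the 531 members (35.4%), against 5983 of 9629 multi-exon transcripts (62.1%). It was present in 41.0% of intronless members, 17.0% of Gm-named members and 51.9% of single-exon transcripts of multi-exon genes. A motif in these letters describes the annotated end and does not show where reads ended. Median GC content was 51.7% for members and 50.9% for multi-exon transcripts.

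A closer division follows from sequence. Each member was aligned with annotated spliced coding transcripts and with mt- coding genes, which have no introns, outside its own place in the genome. By this search 218 members were 95% or more identical to such a source over 90% or more of their length, 212 of them to a spliced transcript and 6 to an mt- gene. These copies made up 41.1% of members and held 67.2% of member reads in replicate 1 and 63.9% in replicate 2. Of them, 127 were in the Gm-named class, 80 in the intronless class and 11 in the multi-exon class, and 44 Gm-named members were not copies by this measure. The median length was 534 nt for copies and 2175 nt for the other 313 members. AATAAA lay in the last 50 bases of 11.5% of copies and 52.1% of the others.

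**Figure D1:**
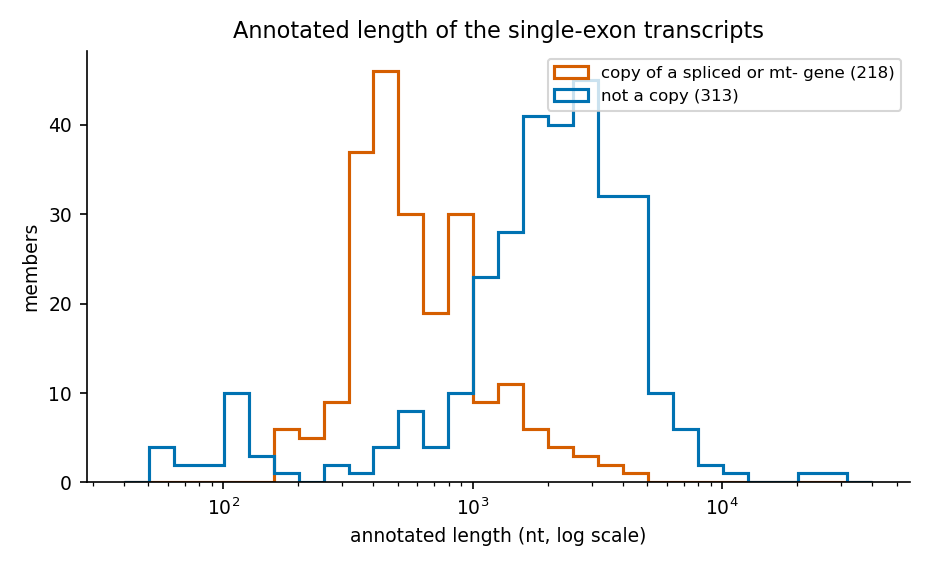
Annotated length of the members in nt (log scale) against the number of members per length bin, for 218 copies of spliced or mt- genes and 313 other members. Copies centre on a median of 534 nt and the others on 2175 nt, with a small group of the others under 200 nt.

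The copies were close to their sources. Median identity was 99.7%, 187 of 218 were 99% or more identical, and 53 were identical to the source transcript over their whole length. The annotated length was within 3 nt of the coding length of the source for 151 copies, so that the annotated model covers the coding stretch and leaves out the ends of the source mRNA. In 142 copies (65.1%) the longest reading frame reached 95% or more of the source's coding length, and in 61 it was under 50% of it. The annotation types 192 of the copies as pseudogenes and 24 as coding. The 212 copies of spliced genes came from 163 source genes, and 200 lay on another chromosome than the source. Because reads cannot be assigned with certainty between such pairs, the levels of these 218 members and of their source genes are uncertain.

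Gapdh showed the widest gap between gene and copies. The spliced gene on chromosome 6 had 60 reads in replicate 1 and 54 in replicate 2, or 54.3 and 38.6 CPM, over all models within 1000 bp of it on its strand. Its 13 copies among the members had 3384 and 3660 reads. Copies therefore held 98.3% of the summed reads of gene and copies in replicate 1 and 98.5% in replicate 2. Of the 60 and 54 reads of the gene itself, 14 and 9 were on a further member, Gapdh-213, a 3289-nt single-exon transcript typed as a retained intron.

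Among the Gapdh copies, Gm5559 had 1133 reads in replicate 1 and 1019 in replicate 2, a mean of 877 ± 211 CPM (SD, n = 2), the highest of all members. Gm7336 on chromosome 7 had 877 and 828 reads, and Gm13394 on chromosome 2 had 268 and 259. These 3 copies thus had similar counts in both libraries, each with more reads than Gapdh itself. In CPM they were higher in replicate 1, by 1.41-fold for Gm5559, 1.34-fold for Gm7336 and 1.31-fold for Gm13394. Gm12671 and Gm12033 differed far more: Gm12671 had 49 reads in replicate 1 and 1471 in replicate 2, and Gm12033 had 936 and 20. Unannotated intergenic models on the same strand overlapped both. The most read of these had 2076 and 426 reads over Gm12671 in replicates 1 and 2, and 495 and 1261 over Gm12033. With all nearby models included, every one of the 5 most read Gapdh loci had a log2 ratio of replicate 1 over replicate 2 between 0.39 and 0.50. The 8 other copies had between 2 and 32 reads in each library.

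Summed over the gene, its copies and the models within 1000 bp of the copies, Gapdh sequence drew 6034 reads in replicate 1 and 5474 in replicate 2. That is 5465 and 3912 CPM, a log2 ratio of replicate 1 over replicate 2 of 0.48. By mean CPM the gene alone ranked 2266 among 14641 annotated genes with reads, and the sum, 4689 CPM, would rank 17. The other genes were ranked without their copies or nearby models, so the second rank compares unlike measures. Which locus the reads came from was not tested.

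**Figure D2:**
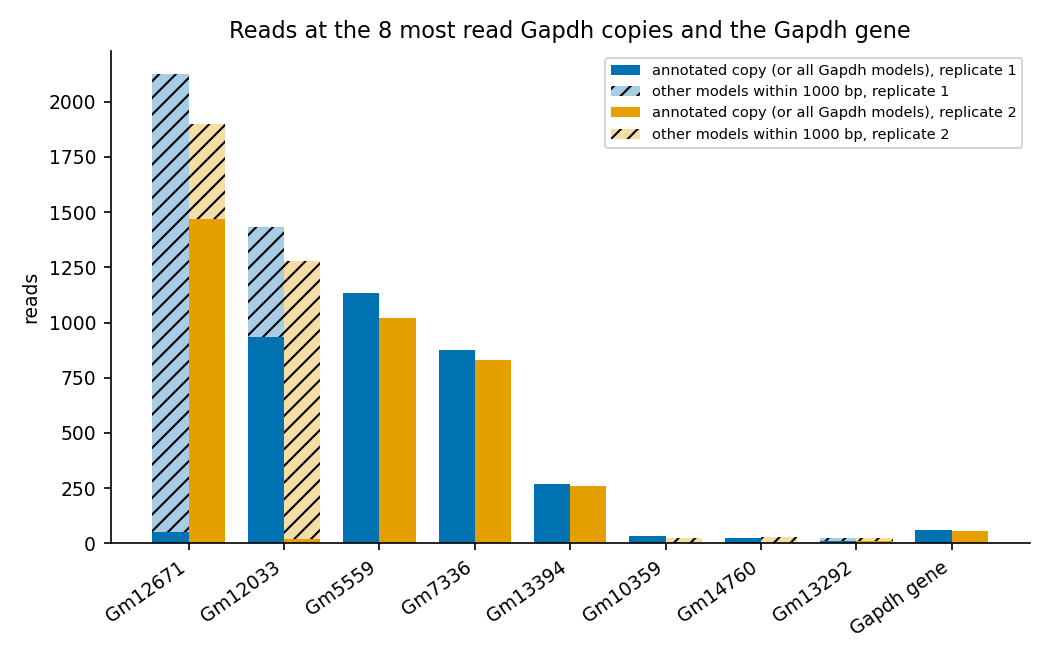
Reads at the 8 most read copies of Gapdh and at the Gapdh gene, with replicate 1 (blue) left of replicate 2 (orange). Solid bars are the annotated copy, or all models of the gene, and hatched bars are other models within 1000 bp on the same strand. Gm12671 and Gm12033 hold their reads in different models in the 2 libraries, and the Gapdh gene has 60 and 54 reads.

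Counted as the annotated transcript alone, most other copies had fewer reads than the gene they resemble, which was counted over all its models. Unannotated models over or beside a copy were left out of these counts and shares, which lowers the side of the copy. Among the 212 copies of spliced genes, a copy had more reads than its closest spliced gene in 22 cases in replicate 1 and 24 in replicate 2, and in 19 cases in both. Those 19 comprised 3 copies of Gapdh, 13 of ribosomal protein genes and 3 of other genes, namely Amd2, Ftl1-ps1 and the Xpot copy Gm7389. Over the 158 spliced source genes with 20 or more summed reads of gene and copies, the median share on copies was 11.8% in replicate 1 and 13.1% in replicate 2.

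Copies of single metabolic and stress genes had some of the highest counts. Gm15459 on chromosome 5, which differs from Hspa8 at 5 of 1941 bases, had 1153 reads in replicate 1 and 860 in replicate 2. With other same-strand models within 1000 bp, mainly an overlapping model of 554 reads in replicate 2, Gm15459 came to 1154 and 1416. Hspa8, which encodes a constitutive chaperone of the heat shock 70 family, had 1200 and 1608. Amd2, an intronless gene annotated as coding for S-adenosylmethionine decarboxylase, an enzyme of polyamine synthesis, had 798 and 801 reads, above the spliced Amd1 with 695 and 690. Mpc1-ps, a copy of the gene of a mitochondrial pyruvate carrier subunit, had 306 and 423, against 290 and 485 for Mpc1. The copy thus exceeded its source in replicate 1 only. Ftl1-ps1, a copy of the ferritin light chain gene, had 330 and 346 reads, against 178 and 207 for Ftl1.

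Respiratory chain genes contributed 12 copies with 1320 reads in replicate 1 and 1899 in replicate 2. Gm12338, the Cox7c copy printed above, had 358 and 569 reads, against 916 and 1243 for Cox7c. Gm14539, a copy of Usmg5, a small subunit of ATP synthase, had 302 and 449 reads, against 771 and 1196 for Usmg5. Gm11273, a copy of the cytochrome c oxidase gene Cox5b annotated as coding, had 154 and 242, against 670 and 948. For these the spliced gene was the more read of the pair in both libraries. The copies Gm10231 (165 and 195 reads) and Gm10175 (134 and 164) were both identical to Atp5g2, a gene of the ATP synthase c subunit. Within the shared 441 bases they therefore cannot be told apart from it or from each other, and sequence beyond these was not compared. Together they exceeded the 184 and 233 reads of Atp5g2.

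Ribosomal protein genes gave the largest family, with 88 copies, 2991 reads in replicate 1 and 3646 in replicate 2, or 16.3% of member reads in each. Some had far more reads than their source. The 4 copies of Rpl21 had 252 and 310 reads, against 18 and 33 for Rpl21. The 5 copies of Rpl35a had 177 and 194, against 22 and 34 for Rpl35a. Rpl10-ps3, annotated as coding and identical to Rpl10 over the aligned stretch, had 96 and 94 reads, against 14 and 6 for Rpl10. In the other direction, Gm15500, identical to Rpl5, had 198 and 272 reads, against 282 and 404 for Rpl5. Gm14303, identical to Rps29, had 212 and 190, against 220 and 289 for Rps29. With other same-strand models within 1000 bp, Gm14303 came to 292 reads in replicate 2. The 88 copies showed no uniform order relative to their sources.

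**Figure D3:**
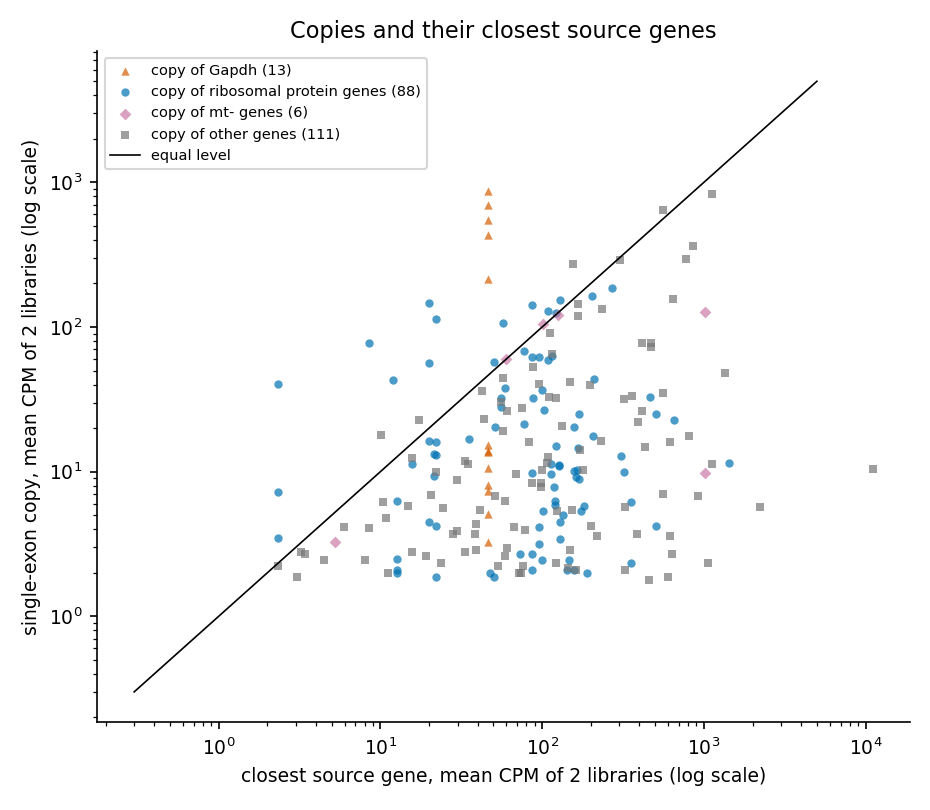
Mean CPM of the 2 libraries (log scales) for each of the 218 copies (vertical axis) and its closest source gene (horizontal axis), with a line at equal level. Copies are the annotated transcript alone and source genes are all their models. Most copies lie under the line. The column of triangles is the 13 copies of Gapdh, 5 of them above the line.

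The 6 copies of mitochondrially encoded genes lie in the nuclear genome and had 496 reads in replicate 1 and 565 in replicate 2. Gm29216, Gm10925, Gm28437 and Gm28661 lie side by side on chromosome 1, between positions 24613189 and 24616197 on the minus strand of mm10. Gm10925 (121 and 186 reads), Gm28437 (130 and 130) and Gm28661 (76 and 71) were identical to mt-Atp6, mt-Co3 and mt-Co2. The mitochondrial genes themselves had 142 and 170 reads for mt-Atp6, 126 and 123 for mt-Co3, and 69 and 81 for mt-Co2. The nuclear and mitochondrial genes were thus counted at like levels, although mt- genes had been left out of the members by name. Gm29216, at 492 nt, covers only part of mt-Co1, whose coding sequence is 1545 nt. It had 152 and 163 reads, against 1168 and 1350 for mt-Co1.

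Transcripts of intronless coding genes that are not copies numbered 135, from 134 genes, with 3665 reads in replicate 1 and 5100 in replicate 2, at a median length of 2344 nt. Across 142 intronless genes of the first class with 20 or more reads, copies included, a median of 100% of the gene's reads fell on annotated transcripts. Of their summed reads 98.6% did. For 6558 multi-exon genes the median was 78.2% and the summed share 65.4%. These figures are not alike in kind, since an intronless gene has no annotated junctions that a read could match only in part. Unannotated models beside an intronless gene also count outside its total, so the contrast is not read as a property of the genes.

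The most read intronless coding gene without a spliced source was Cebpb, the gene of the bZIP transcription factor C/EBP-beta, at chr2:167688915-167690418. It had 313 reads in replicate 1 and 523 in replicate 2 (283 and 374 CPM). Fem1a, a substrate receptor of a ubiquitin ligase, had 293 and 366 reads. Pcbp1, which encodes a poly(C)-binding protein, had 141 and 185, and Sephs2, a selenophosphate synthetase gene, had 143 and 171. The remaining genes among the 10 most read intronless coding genes without a spliced source were 0610012G03Rik, Tpbgl, Fzd9, Jund, Lrrc30 and Tspyl1. Their counts lay between 73 and 155 in replicate 1 and between 146 and 252 in replicate 2. Fzd9, a Wnt receptor, had 73 reads in replicate 1 and 252 in replicate 2, the only one of these 10 more than 2-fold apart in CPM.

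Immediate early and stress genes were a compact group: 12 of the 15 listed genes that have a single-exon transcript were members, with 615 reads in replicate 1 and 937 in replicate 2. Besides Cebpb, the AP-1 subunit genes Jund (111 and 178 reads), Junb (28 and 32) and Jun (27 and 46) were read, as was Cebpd, with 21 and 62. Maf-202, from the gene of a bZIP factor, had 40 and 21. In CPM, Cebpd was over 2-fold higher in replicate 2 and Maf-202 over 2-fold higher in replicate 1. Only 6 of the 12 had 50 or more summed reads, Cebpd and Maf-202 among them. Over 3269 annotated transcripts of all kinds at that threshold, 5.2% were over 2-fold apart. The median log2 ratio over the 12 was -0.09, and that over the 3269 was -0.08. These 2 medians are not at the same threshold, and neither they nor the 2 genes apart are read as a property of the group.

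All 4 listed heat shock genes with a single-exon transcript were members, each with under 50 reads in either library: Hspa2 had 24 reads in replicate 1 and 44 in replicate 2, the small heat shock gene Hspb3 25 and 25, and the stress-inducible Hspa1a and Hspa1b 11 and 14, and 5 and 3. Of 102 histone genes by symbol that have a single-exon transcript, 11 were members, with 349 and 417 reads. The linker histone gene H1f0, whose mRNA is polyadenylated outside S phase, led with 82 and 73 reads, followed by Hist2h2aa2 with 63 and 78 and Hist2h2aa1 with 53 and 62. Hist2h2aa1 and Hist2h2aa2 are near-identical neighbours on chromosome 3, so the division of reads between them is uncertain, as it is for the near-identical Hspa1a and Hspa1b. The other listed histone genes did not reach 5 summed reads on a single-exon transcript, and spliced histone transcripts were not counted. Histone mRNAs of dividing cells end without a poly(A) tail, and how the libraries captured such RNAs is not given in the sources used here.

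Among receptor and channel genes Kcnj11, the pore subunit of the ATP-sensitive potassium channel, had 97 reads in replicate 1 and 105 in replicate 2. The voltage-gated channel gene Kcna5 had 6 and 9, the purinergic receptor gene P2ry1 4 and 9, and Lpar6 7 and 0. The endothelial tight junction gene Cldn5, outside the lists, had 31 and 44. Among ubiquitin ligase genes Klhl9 had 17 and 44 reads, Klhl34 16 and 35, and Kbtbd13, a cullin adaptor mutated in a nemaline myopathy, 14 and 20. Of 2 small GTPase genes with a single-exon transcript Rhob was a member, with 3 and 13. Of the RNA and DNA binding genes 4 of 13 were members: Purb had 15 and 26 reads, Sox4 6 and 4, Pou3f1 1 and 4, and Zxda 2 and 3. Kcna5, P2ry1, Lpar6 and the listed GTPase and binding genes all stayed under 50 summed reads.

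Single-exon transcripts of multi-exon genes were of 2 kinds. The annotation types 47 of the 104 as retained introns and 57 as coding, noncoding or pseudogene transcripts. Over the 79 whose gene had 20 or more reads, the median share of the gene's reads on the transcript was 20.5%, with medians of 19.7% in replicate 1 and 22.6% in replicate 2. In genes with 50 or more reads the median was 12.5%. The values were split: 22 transcripts held 90% or more of their gene, 37 held under 20%, and 20 lay between. The 40 retained-intron transcripts among them had a median share of 9.65%, and the 39 others one of 94.4%. In both libraries the single-exon transcript was the most read model of its gene in 6 of 47 retained-intron cases and 43 of 57 others.

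Examples of the dominant kind were Smim10l1-201, with 237 reads in replicate 1 and 310 in replicate 2, or 98.3% and 97.5% of its gene. Kcnj11-205 held 95.1% and 92.9% of Kcnj11. Prob1-201, with 86 and 173 reads, held 91.5% and 94.5% of its gene, and Cebpd-201 95.5% and 100%. Of the retained-intron kind, Ss18l2-207 had 55 and 62 reads, 26.8% and 25.1% of Ss18l2. Pgp-202, from the phosphoglycolate phosphatase gene, had 32 and 53 reads, 11.0% and 14.2% of Pgp. By position, 59 of the 104 spanned a whole intron of a spliced transcript of the same gene and 39 ran into an intron.

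**Figure D4:**
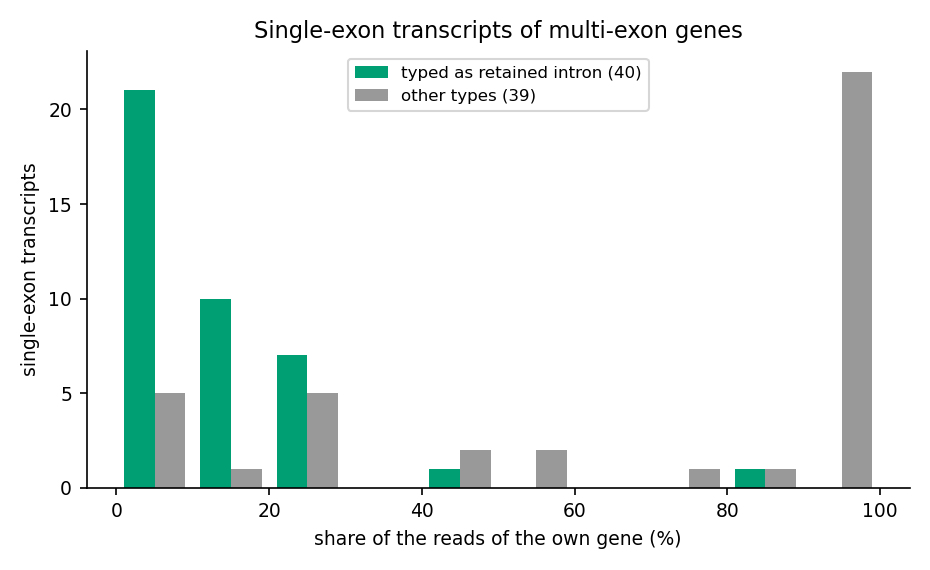
Share of the reads of the own gene (%, both libraries summed) against the number of single-exon transcripts, for the 79 in genes with 20 or more reads. The 40 typed as retained introns sit mostly under 30%, and 22 of the 39 others are at 90% or more.

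Long nuclear RNAs were represented by Neat1-201, the scaffold of paraspeckles, with 102 reads in replicate 1 and 216 in replicate 2, and Malat1-201 with 32 and 28. The Neat1 locus held a further member with more reads. Gm28006, a 122-nt model typed as miscellaneous RNA, lies inside the Neat1 exon on the same strand (chr19:5844916-5845037, minus strand) and had 459 and 373 reads. Another 2 short models in the same exon had far fewer, Gm27533 with 13 and 13 reads and Gm27505 with 10 and 5. It is shown whole because it took most of the reads of the locus. It is 18.9% A and holds no AATAAA.
Gm28006-201: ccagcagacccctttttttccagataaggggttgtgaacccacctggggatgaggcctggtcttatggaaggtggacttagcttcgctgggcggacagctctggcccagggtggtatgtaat

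Gm28006 held 77.3% of the 594 same-strand reads over the Neat1 gene in replicate 1 and 60.6% of 616 in replicate 2. Neat1-201, at 20771 nt, held 17.2% and 35.1%. The summed locus was thus read at similar counts in both libraries while the division between short and long model differed. In CPM the log2 ratio of replicate 1 over replicate 2 for the summed locus was 0.29. Reads are assigned to whole models, and whether a read at Gm28006 covered only these 122 bases cannot be read from counts. Members under 200 nt numbered 28, of which 11 lay inside an exon and 5 inside an intron of another gene on the same strand. Over all members, 39 overlapped an exon of another gene on the same strand, 52 lay in an intron of one, and 177 overlapped a gene on the opposite strand. Whether strand was used in counting is not given in the sources used here, so reads of such pairs may not be separable.

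Agreement between the libraries was described for the 141 members with 50 or more summed reads. More than 2-fold apart in CPM were 12 of them (8.51%), 4 higher in replicate 1 and 8 higher in replicate 2. The background over all 3269 annotated transcripts with 50 or more summed reads was 5.2%, with 0.612% higher in replicate 1 and 4.59% higher in replicate 2. The difference between the 2 shares is not read as a property of the members. By class these were 4 of 78 intronless genes, 6 of 47 Gm-named genes and 2 of 16 single-exon transcripts of multi-exon genes. The split by direction depends on the scaling: with the TMM scaling of edgeR it was 6 higher in replicate 1 and 6 higher in replicate 2, and with a median-ratio scaling 7 and 6. TMM moves every log2 ratio of replicate 1 over replicate 2 by 0.11 and the median-ratio scaling by 0.12.

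**Figure D5:**
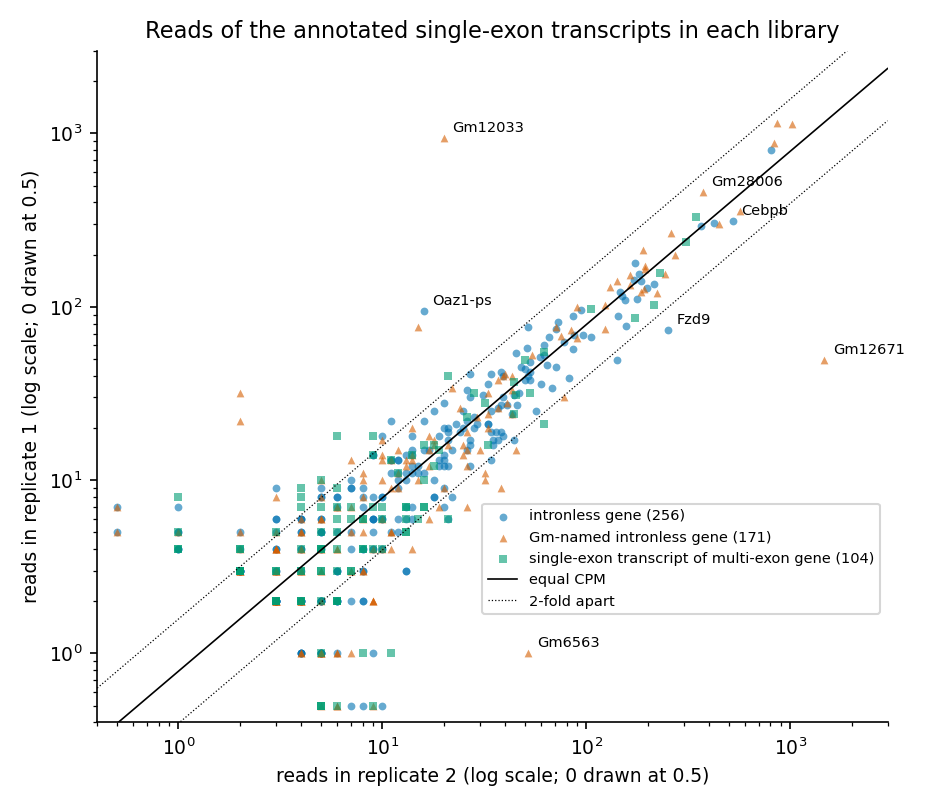
Reads of each of the 531 members in replicate 1 (vertical axis) and replicate 2 (horizontal axis), on log scales with 0 drawn at 0.5. The solid line marks equal CPM, the dotted lines 2-fold differences, and symbols the 3 classes. Gm12671, Gm6563 and Fzd9 lie beyond the line on the replicate 2 side, and Oaz1-ps and Gm12033 on the replicate 1 side.

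Of the 12, 8 were copies of spliced genes, while 78 of the 141 members compared were copies (10.3% of copies and 6.35% of the other 63 were over 2-fold apart, a difference that was not tested). Higher in replicate 1 were the Gapdh copy Gm12033, Oaz1-ps (94 and 16 reads), Gm8116 (76 and 15) and Maf-202 (40 and 21). Higher in replicate 2 were the Gapdh copy Gm12671, Gm6563 (1 and 52), Fzd9, Gm15432 (15 and 45), Cebpd, Vcp-rs (49 and 141), Gm15801 (30 and 78) and Klhl9 (17 and 44). When other same-strand models within 1000 bp were added, 7 of the 12 came within 2-fold, 6 of them copies and the seventh Maf. Vcp-rs, for example, came to 247 and 279 reads, and Maf to 60 and 41. Gm15801 came only just within, at 34 and 86 reads. Gm6563, Fzd9, Gm15432, Cebpd and Klhl9 remained apart. Klhl34, at 17 and 45 reads with its neighbours, joined them just beyond 2-fold, giving 6 of 141. Neighbours were not added for annotated transcripts of all kinds, so this count has no background and is not read as a property of the members.

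Of the 5 that remained apart, Fzd9, Cebpd and Klhl9 are not copies by the measure used. They were named because they were over 2-fold apart, so their ratios and intervals rest on the values that selected them. Among the 63 compared members that are not copies, 6.35% were over 2-fold apart, against 5.2% of all annotated transcripts. The CPM of Fzd9 was 2.72-fold higher in replicate 2 than in replicate 1 (95% exact binomial interval 2.09 to 3.59), that of Cebpd 2.33-fold (1.40 to 4.02) and that of Klhl9 2.04-fold (1.14 to 3.81). Klhl9, at a log2 ratio of -1.03, came within 2-fold with the TMM or the median-ratio scaling. The copy Gm6563, which is 99.8% identical to Sarnp, had a ratio of 41.0 (7.05 to 1652) on a single read in replicate 1. The intervals cover counting error only, and with 1 library on each side no spread between animals can be set against them.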

How the data were processed

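Long-read RNA sequencing was available for 2 gastrocnemius libraries. The deposited values are raw read counts per transcript model, 1 table per library, listing models with 1 or more reads. Per the file headers and accompanying notes, the build is mm10 and the models are TALON models on the GENCODE M21 annotation, with unannotated models beside annotated ones. For the aligner, its version and any read filter, nothing was found: not given in the sources used here. Lengths, exon numbers and coordinates of annotated transcripts are those of GENCODE M21, and the positions of nearby models are as deposited.

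Spike-ins were removed, and annotated single-exon transcripts under 5 summed reads were left out. Classes follow GENCODE M21. Counts were divided by the reads of annotated non-mt genes (CPM). A count of 0 allows up to 2.72 CPM in replicate 1 and 2.14 CPM in replicate 2 (3 counts). Transcript sequences were aligned with blastn 2.17.0 (E value 1e-10). Copies needed 95% identity over 90% of the member, a criterion set after the data were seen. Intervals are Wilson or exact binomial at 95%. Scaling alternatives used edgeR 4.0.16, other steps Python 3.11.15. The count of transcripts over 2-fold apart was tested on simulated data. No p-value was computed, since there is 1 group.

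Named transcripts are the 10 most read of each class, those most apart between libraries, and the leading members of lists. Further copies, retained-intron transcripts, short models and Cldn5 were named after their values were seen. The members and lists were chosen with earlier results of these data known. Alternatives covered the read minimum, scaling, denominators, neighbour distance, copy criterion and leaving out each library. Some listed values are not reported here.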

Additional observations from a re-analysis of the deposited data

How the results depend on the processing

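The number of members, 531, ranged from 351 to 412 when 5 reads were required in a single library. Their mean share of reads was 2.48% with reads of annotated transcripts as denominator, 1.54% without the most read member and, as an alternative chosen after seeing the data, 1.35% without the Gapdh copies. The 12 members over 2-fold apart became 31 at 20 or more summed reads, 6 at 100 or more, and 114 at 5 or more with a prior count of 0.5. The median share of the own gene, 20.5%, was 23.5% without genomic reads, 12.5% in genes with 50 or more reads, and ranged from 19.7% to 22.6% when each library was left out. With ATTAAA also accepted, added after seeing the data, the share of members with a polyadenylation signal was 43.9%. The other alternatives, among them 80% identity over 50% of the member for copies (234), kept each value within its spread or within 1.5 times its count. Causes were not tested. The search for A-rich sequence beyond the annotated ends was not run, since it needs the genome. No paired analysis was possible because there is a single group. Depth limits members near 5 reads most: 12 had no read in replicate 1 and 4 had none in replicate 2.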

Other observations

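A few noncoding members outside the comparisons had enough reads to follow up. The intronless lincRNA gene 2900097C17Rik had 2 members. The 339-nt 2900097C17Rik-201 had 77 reads in replicate 1 and 157 in replicate 2. The 4915-nt 2900097C17Rik-202, whose span contains the shorter one on the same strand of chromosome 2, had 67 and 66. The short model was the more read of the pair. On chromosome 17, AY036118 had 41 and 27 reads and Gm42418 38 and 37. Other same-strand models overlapping Gm42418 held more, at 117 and 107 reads. Small RNA models were read at low counts, with 13 and 12 reads for the microRNA gene Mir546 and 5 and 12 for the small nucleolar RNA gene Snord13.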
